A study of Mus musculus with 6 samples.

Results

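The 10 genes described here are target genes of the Wnt/beta-catenin pathway in the hepatocytes around the central vein (Glul, Oat, Rhbg, Slc1a2, Lect2 and Tbx3) and target genes that feed back on the pathway itself (Axin2, Lgr5, Rnf43 and Znrf3). They were taken by name from the table of liver transcripts, and each of the 10 had 1 row among 25102 genes. The table holds 6 livers of male C57BL/6J mice, 3 control and 3 DEN+CCl4, in which DEN is diethylnitrosamine, a carcinogen that alkylates DNA after activation in hepatocytes, and CCl4 is carbon tetrachloride, which injures pericentral hepatocytes after activation by Cyp2e1. The DEN+CCl4 mice, called treated below, were given DEN (1 mg/kg) at 2 weeks of age. From roughly 6 weeks after that they were given CCl4 (0.2 mL/kg) 2 times a week, for no longer than 14 weeks. Control mice were of the same sex, strain and starting age, and no injection is given for them in the labels. The labels give neither the age at collection nor whether a treated sample was tumour, the liver around it or both. Animals are identified only by a replicate number, so a p-value here covers only the spread of these samples, which may be technical.

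Wnt ligands and the R-spondin Rspo3 are made by endothelial cells of the central vein. They act on Frizzled and Lrp5/6 receptors of the neighbouring hepatocytes, where the destruction complex of Axin, Apc and Gsk3 then releases beta-catenin (Ctnnb1) to work with TCF/LEF factors in the nucleus. In liver this signal keeps the innermost hepatocytes on a programme of glutamine synthesis and drug oxidation, and genes of that programme are used as markers of the pericentral zone. Axin2 rebuilds the destruction complex, and Rnf43 and Znrf3 remove Frizzled receptors from the cell surface unless R-spondin and its Lgr receptors hold them back.

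Expression was given as FPKM, fragments counted per unit of gene length and of sequencing depth, so levels can be compared between genes within a library. Mitochondrially encoded transcripts took 64.2% of the FPKM of treated replicate 3 and 26.6% to 43.0% in the other 5 libraries. The median over tested genes was 1.19 FPKM in that replicate, against 3.43 to 4.46 FPKM elsewhere. For this reason values are also given after median-ratio scaling, in which the values of a library are divided by the median of their ratios to a geometric mean of all 6. Over the 8528 genes whose mean over the libraries reached 1 FPKM, the median log2 fold change was -0.27 as deposited and -0.10 after that scaling. The 7 hepatocyte markers with values (Alb, Apoa1, Apob, Ttr, Fga, Fgb and Serpina1a) were above 0 in all 6 libraries. Their summed level was 28798 to 45350 FPKM in control liver against 29050, 65125 and 13175 FPKM across treated replicates 1, 2 and 3. After scaling it was 25235 to 39026 against 23348, 44630 and 31460, with treated replicate 3 within the controls. In whole liver, fewer pericentral cells and less RNA per cell cannot be told apart.

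In control liver the order of levels was Glul (148 FPKM), Oat (148), Lect2 (86.0), Slc1a2 (8.77), Rhbg (6.14), Tbx3 (1.88), Axin2 (1.33), Rnf43 (1.27), Znrf3 (0.587) and Lgr5 (0.237). Neighbours in this order had overlapping control values, except that Lect2 and Slc1a2, Rnf43 and Znrf3, and Znrf3 and Lgr5 were separated in all 3 controls. Rhbg was below Tbx3 and Axin2 in control replicate 2. Of the 10, 8 reached the filter of 1 FPKM and were tested, and Lgr5 and Znrf3 did not.

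Oat was the member whose fall passed the test, and Glul, Slc1a2, Rhbg and Lect2 had lower treated than control means without passing it. Oat, ornithine aminotransferase (ENSMUSG00000030934, chromosome 7, 132576398 down to 132557478, GRCm38), a mitochondrial enzyme that turns ornithine toward glutamate, measured 178, 64.1 and 201 FPKM in control replicates 1, 2 and 3. It measured 38.0, 3.87 and 0.79 FPKM across treated replicates 1, 2 and 3. All 3 treated values were below all 3 controls, at 25.7%, 2.62% and 0.534% of the control mean. Oat fell by a log2 fold change of -4.25 (SE 0.92, 95% interval -6.06 to -2.45, limma adjusted p = 0.00185). This call was lost in 14 of 19 alternative fits, among them median-ratio scaling (limma adjusted p = 0.401) and the fit without treated replicate 3 (0.568), and the direction was the same in all 19. Oat lies within the annotated span of Fgfr2 on the same strand.

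Glul, glutamine synthetase (ENSMUSG00000026473, chromosome 1, 153899944 to 153909723), fixes the ammonia that escapes the periportal urea cycle and is confined to the ring of hepatocytes next to the central vein in normal liver. It read 176, 112 and 156 FPKM in control liver against 99.98, 17.2 and 2.11 FPKM across treated replicates 1, 2 and 3. The groups did not overlap, with replicate 1 just under the lowest control and the other 2 far below it. A log2 fold change of -3.03 (SE 0.98, 95% interval -4.97 to -1.10) did not pass limma's test (adjusted p = 0.105).

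Slc1a2, the glutamate transporter that supplies glutamine synthesis (ENSMUSG00000005089, chromosome 2, 102658659 to 102790784), read 10.3, 7.25 and 8.77 FPKM in controls. It read 7.45, 0.64 and 0.01 FPKM across treated replicates 1, 2 and 3. Replicate 1 lay within the controls as deposited and just under them after median-ratio scaling (5.99 against 6.35 to 9.39), and the other 2 lay below by either measure. Its difference on the log2 scale was -2.01 (SE 0.59, limma adjusted p = 0.0507). Rhbg, an ammonium transporter of the hepatocyte membrane (ENSMUSG00000104445, chromosome 3, 88254709 down to 88242874), ranged widely in controls, at 9.68, 1.82 and 6.93 FPKM, and read 4.73, 0.77 and 0.12 FPKM in treated liver. Replicates 2 and 3 were below all controls and replicate 1 was among them (log2 fold change -1.46, SE 0.54, limma adjusted p = 0.217). Rhbg shares its strand and part of its span with the predicted gene Gm38392, so reads may be split between them. With a pseudocount of 0.1 the differences were -3.37 for Slc1a2 and -2.39 for Rhbg, with limma adjusted p of 0.450 and 0.622.

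Lect2, a protein that hepatocytes secrete into plasma (ENSMUSG00000021539, chromosome 13, 56548502 down to 56542464), read 97.9, 48.5 and 111.8 FPKM in control liver against 44.7, 23.6 and 2.44 FPKM across treated replicates 1, 2 and 3. The groups did not overlap, although the highest treated value lay close to the lowest control. A difference of -2.39 on the log2 scale (SE 0.93, 95% interval -4.22 to -0.55) did not pass (limma adjusted p = 0.287).

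**Figure D1:**
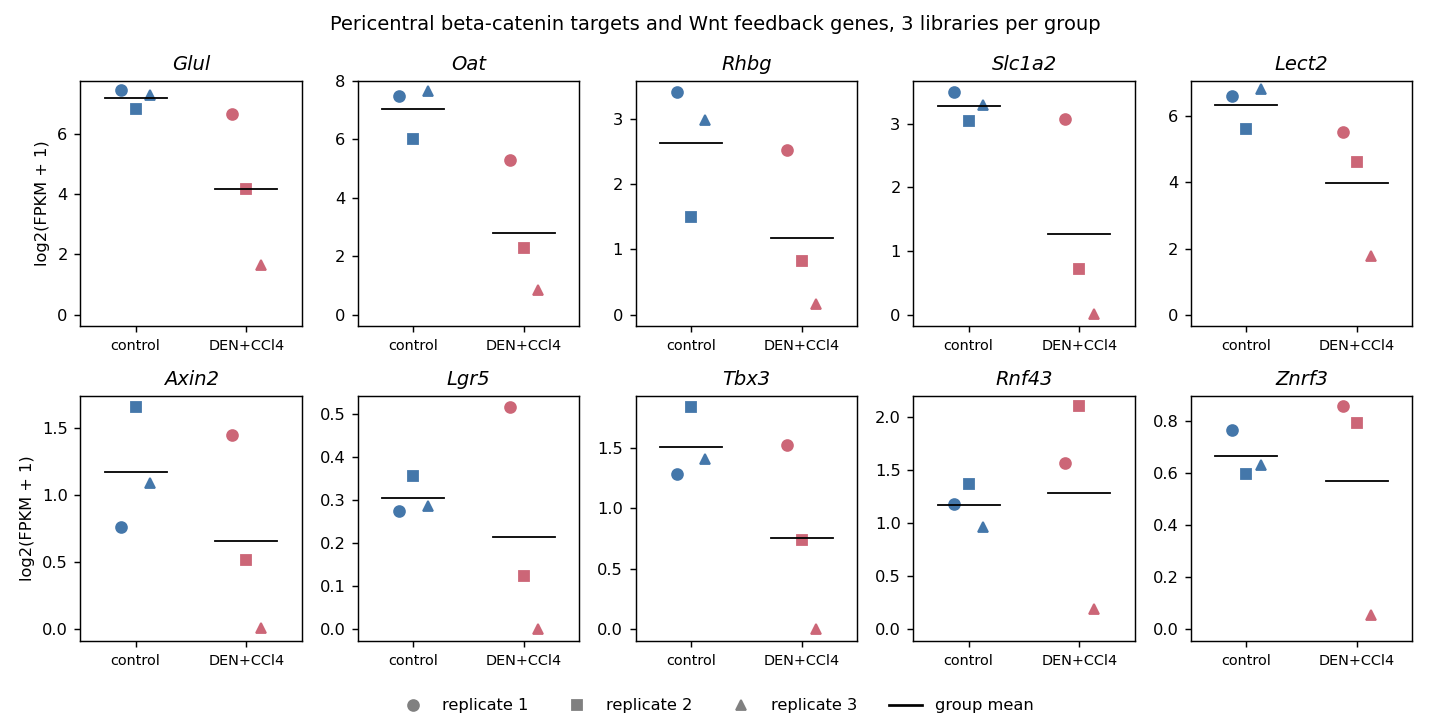
FPKM of the 10 genes on a log2(FPKM + 1) scale in the 3 control (blue) and 3 DEN+CCl4 (red) libraries, with the replicate number as the marker shape and the group mean as a line. Glul, Oat and Lect2 have all 3 treated values under all 3 controls, and Rnf43 and Znrf3 have treated replicates 1 and 2 above the controls and replicate 3 below them.

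Promoter sequence is shown for 3 members whose window before the start site holds no annotated exon: Oat, whose level fell, Lect2, whose window holds a TCF/LEF core, and Axin2, the common read-out of the pathway. The sequences are RefSeq's (GRCm38.p6), 250 bases up to the base before the transcription start, read 5′ to 3′ along the gene. The RefSeq start of Lect2, unlike those of Oat and Axin2, is not a transcript start in GENCODE M21. Capitals mark a match on either strand to the TCF/LEF core CTTTGAA, to its variant CTTTGAT, to its variant CTTTGTA or to its variant CTTTGTT. The windows are chr7:132576399-132576648 (minus strand) for Oat, chr13:56548539-56548788 (minus strand) for Lect2 and chr11:108920099-108920348 (plus strand) for Axin2.
Oat: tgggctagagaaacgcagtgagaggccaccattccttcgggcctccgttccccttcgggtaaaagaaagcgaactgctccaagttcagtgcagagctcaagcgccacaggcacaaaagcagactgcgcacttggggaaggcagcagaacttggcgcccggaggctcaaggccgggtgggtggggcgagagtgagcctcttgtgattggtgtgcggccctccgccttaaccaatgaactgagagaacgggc
Lect2: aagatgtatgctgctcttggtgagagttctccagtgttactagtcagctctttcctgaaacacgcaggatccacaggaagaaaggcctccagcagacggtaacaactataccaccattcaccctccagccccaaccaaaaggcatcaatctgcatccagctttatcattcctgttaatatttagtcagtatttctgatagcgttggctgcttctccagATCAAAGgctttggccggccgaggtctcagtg
Axin2: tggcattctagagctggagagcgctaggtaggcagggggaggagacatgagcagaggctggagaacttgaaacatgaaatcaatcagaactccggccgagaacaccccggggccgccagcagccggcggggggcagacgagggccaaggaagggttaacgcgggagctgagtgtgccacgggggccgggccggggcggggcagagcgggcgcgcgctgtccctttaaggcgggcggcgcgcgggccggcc
Of the 10 members, 6 (Glul, Slc1a2, Oat, Rnf43, Axin2 and Lect2) were matched to 7 windows by symbol. A match was found in 2 of these genes, Lect2 and Slc1a2, both with the letters ATCAAAG, the reverse complement of CTTTGAT. It began 32 bases before the start in Lect2 and 207 bases before it in Slc1a2, and the Slc1a2 window overlaps a GENCODE exon of that gene and is not shown. Of all 27025 genes with a window, 16.8% held at least 1 of the 4 motifs. The core is absent from the windows of Oat and Axin2, and this says only that these letters do not occur in those 250 bases.

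The targets that act in transcription and feedback differed in treated replicate 2. Tbx3, Axin2 and Lgr5 were below all controls in it, and Rnf43 and Znrf3 were not. In treated replicate 3 all of them were below all controls. Tbx3, a T-box repressor that beta-catenin switches on in liver (ENSMUSG00000018604, chromosome 5, 119670669 to 119684724), read 1.43, 2.57 and 1.65 FPKM in control liver against 1.88, 0.67 and 0 FPKM across treated replicates 1, 2 and 3. Axin2, the scaffold that rebuilds the destruction complex (ENSMUSG00000000142, chromosome 11, 108920349 to 108950783), read 0.70, 2.15 and 1.13 FPKM in control liver against 1.72, 0.43 and 0.01 FPKM in treated liver. Lgr5, an R-spondin receptor (ENSMUSG00000020140, chromosome 10, 115587780 down to 115450311), read 0.21, 0.28 and 0.22 FPKM in control liver against 0.43, 0.09 and 0 FPKM in treated liver. For these 3 genes replicate 1 lay within or above the controls and replicates 2 and 3 below all of them, so the groups overlapped. Of all tested genes, 22.7% were below all controls in replicate 2 and 83.9% in replicate 3.

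None of the 3 passed a test. The log2 fold change was -0.75 for Tbx3 (SE 0.41, limma adjusted p = 0.736) and -0.51 for Axin2 (SE 0.38, 95% interval -1.27 to 0.24, limma adjusted p = 0.959). Lgr5 was under the filter, and its difference of -0.09 had an adjusted p of 0.908 in limma's fit over all 24933 genes above 0 in a library. At such levels the log2(FPKM + 1) scale compresses differences, and the 2 decimals of the table leave few steps. With a pseudocount of 0.1 the differences were -1.85 for Tbx3 and -1.46 for Axin2, and neither passed (limma adjusted p = 0.877 and 0.955). Tbx3, Axin2 and Lgr5 each overlap an annotated gene on the other strand, and the use of strand in counting is not given in the sources used here.

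The ligases Rnf43 and Znrf3 had another order of values than Axin2. Rnf43 (ENSMUSG00000034177, chromosome 11, 87662722 to 87735539) read 1.27, 1.58 and 0.95 FPKM in control liver against 1.97, 3.30 and 0.14 FPKM across treated replicates 1, 2 and 3. After median-ratio scaling it was at 141%, 202% and 29.8% of the control mean in these replicates, against 119%, 25.3% and 2.05% for Axin2. Znrf3 (ENSMUSG00000041961, chromosome 11, 5444847 down to 5276324) read 0.70, 0.51 and 0.55 FPKM in control liver against 0.81, 0.73 and 0.04 FPKM in treated liver. Both ligases were thus above all controls in replicates 1 and 2 as deposited and below them in replicate 3. Of all tested genes, 25.8% and 45.1% were above all controls in replicates 1 and 2, and 83.9% were below them in replicate 3. For Znrf3 in replicate 2 the position above the controls no longer held after scaling (0.50 against 0.45 to 0.64). The log2 fold change of Rnf43 was 0.12 (SE 0.43, 95% interval -0.73 to 0.97, limma adjusted p = 0.996), and it became -0.29 without treated replicate 2. For Znrf3 the difference was -0.10 (limma adjusted p = 0.946 without the filter). The ratio of Axin2 to Rnf43 within a library overlapped between the groups, as did that of Axin2 to Znrf3 (exact permutation p = 0.2 and 0.3). Both ratios were computed after the values were seen.

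**Figure D2:**
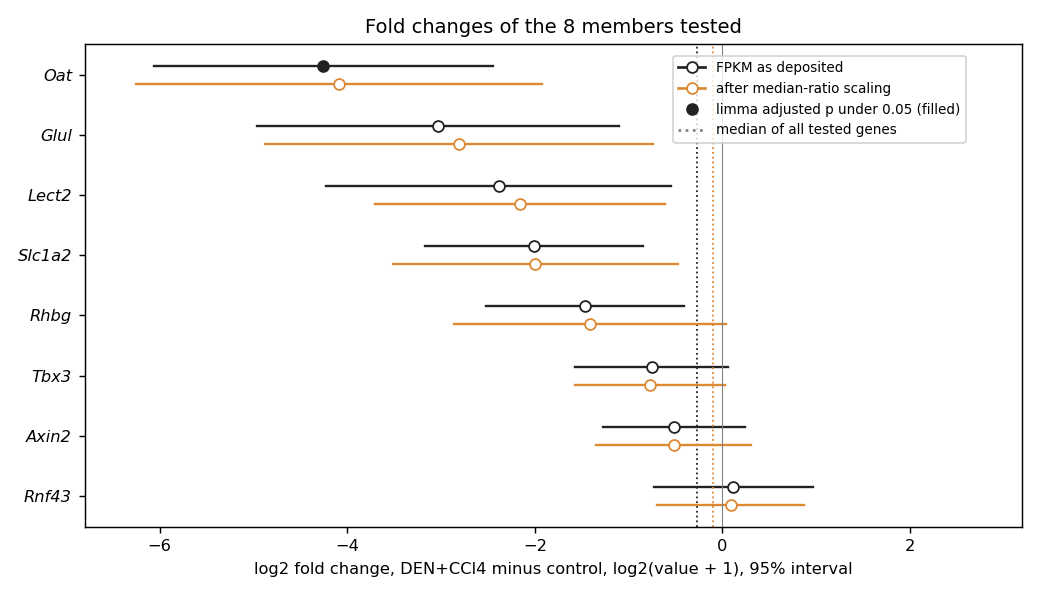
Log2 fold change (DEN+CCl4 minus control) with its 95% interval for the 8 members tested by limma, as deposited (black) and after median-ratio scaling (orange). The filled point is Oat, the member past the threshold as deposited, and the dotted lines are the medians of all tested genes (-0.27 and -0.10).

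Of the 8 tested members, 1 was lower and 0 were higher by limma's test, where 0.645% of all tested genes were lower and 0.833% higher. At an unadjusted p under 0.05, 432 genes were lower and 216 higher over all 8528 tested genes. Oat, Slc1a2, Glul, Rhbg and Lect2 were among the lower (unadjusted limma p from 5.86e-06 for Oat to 0.0111 for Lect2). Tbx3, Axin2 and Rnf43 were not under 0.05. The median log2 fold change of the 8 members was -1.74 (-1.70 after median-ratio scaling), and 7 of the 8 were negative, as were 74.4% of all tested genes (59.8% after scaling). All 3 treated values lay under all 3 controls for 3 of the 8, Glul, Oat and Lect2, a pattern of 5.35% of all tested genes. After median-ratio scaling this held for 4, with Slc1a2 added, against 8.68% of all tested genes. The exact two-sided permutation test of 3 against 3 libraries gave p = 0.1 for Glul, Oat and Lect2, the smallest p this design allows, and 0.2 to 1 for the other 7.

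The 3 treated libraries differed in how many members were low. As deposited, 3, 7 and 8 of the 8 tested members were below all controls in treated replicates 1, 2 and 3, against 11.9%, 22.7% and 83.9% of all tested genes. Rnf43 was the tested member above all controls in replicates 1 and 2, as were 25.8% and 45.1% of all tested genes, and 0 members were above in replicate 3 (5.66%). After median-ratio scaling, 4, 7 and 8 of the 8 tested members were below all controls in treated replicates 1, 2 and 3, against 19.9%, 38.2% and 47.3% of all tested genes, and 1, 1 and 0 were above, against 16.5%, 27.7% and 27.8%. The members' median difference from the control mean on the log2 scale was -0.27, -1.98 and -2.61 in these replicates, and that of all tested genes -0.03, -0.10 and -0.23. Oat stood apart from the others in treated replicate 1, at 23.4% of the control mean after scaling, while Lect2 was at 47.2%, Glul at 61.3%, Rhbg at 69.6% and Slc1a2 at 77.1%. Without replicate 1, 5 members were lower by limma's test: Oat, Slc1a2, Glul, Rhbg and Lect2 (3.17% of all tested genes were lower). Without replicate 3, in which mitochondrial transcripts took 64.2%, 0 members passed and 0 of all genes did (139 lower and 522 higher at an unadjusted p under 0.05). Oat was then at -3.27 on the log2 scale (limma adjusted p = 0.568). Oat also missed the threshold without control replicate 1 (limma adjusted p = 0.0772), control replicate 3 (0.145) or treated replicate 2 (0.0856), and after median-ratio scaling (-4.09, 0.401), with which 0 of all genes passed (575 lower and 374 higher at an unadjusted p under 0.05). In those fits without 1 library 0.117%, 0.106% and 0.176% of all tested genes were lower, and without control replicate 2, where Oat passed, 0.0704%. With a pseudocount of 0.1 or a common non-mitochondrial total, 0 members and 0.0352% of all tested genes were lower, and with a filter at 5 FPKM Oat and 1.6% were. With scaling and without treated replicate 1, 5 members (Glul, Oat, Slc1a2, Lect2 and Tbx3) and 5.15% were lower, and with the replicate number as a block Oat and 0.375%.

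Ratios of 2 genes within a library do not depend on its scale, and 19 of them were computed after the values were seen, as a description. The groups did not overlap for Oat to Glul, Glul to Arg1 and Oat to Alb, and overlapped for all the others. Where 3 treated values do not overlap 3 controls, the exact permutation test gives p = 0.1 by construction, so the p adds nothing to that order. The share of such an order over other pairs of genes was not computed. The Oat to Glul ratio was 1.01, 0.570 and 1.29 in controls and 0.380, 0.225 and 0.374 in treated replicates 1, 2 and 3, without overlap. Relative to Arg1, the arginase of the urea cycle, Glul was at 0.770, 0.419 and 0.439 in controls and 0.318, 0.0883 and 0.0498 in treated liver, also without overlap. Per 1000 FPKM of Alb, the serum albumin transcript, Oat was at 11.6, 4.66 and 8.54 in controls and 3.24, 0.158 and 0.106 in treated liver. Glul was at 11.5, 8.17 and 6.62 against 8.51, 0.703 and 0.282, so that treated replicate 1 lay among the controls. The Rhbg to Glul ratio was 0.0551, 0.0162 and 0.0444 in controls and 0.0473, 0.0448 and 0.0569 in treated liver, with no separation.

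**Figure D3:**
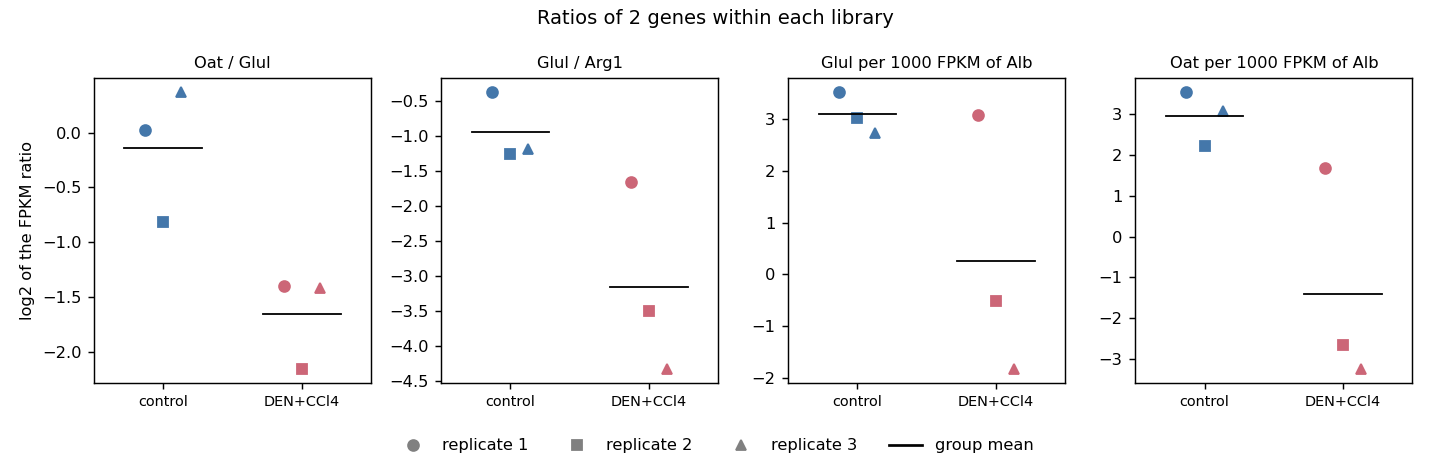
Log2 of the ratio of 2 FPKM values in the same library for 4 pairs of genes, by group, with the replicate number as the marker shape and the group mean as a line. Oat relative to Glul is under the controls in all 3 treated libraries, and Glul relative to Alb is not in treated replicate 1.

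The rest of the pathway was read from 9 lists of genes. Of 166 genes outside the 10 members, 151 had values and 82 were tested. Of these, 6 were lower and 0 higher, against 0.645% and 0.833% of all tested genes. All 6 were in the list of other pericentral targets. Among Wnt and R-spondin ligands and their secretion factors, 18 of 25 had values and 1 was tested, with 0 calls. The central vein ligands had values near 0, and Wnt2 read 0.23, 0 and 0.13 FPKM in control liver against 0.39, 0.24 and 0 FPKM across treated replicates 1, 2 and 3. Wnt9b read 0.16, 0.29 and 0.10 FPKM against 0.29, 0.54 and 0 FPKM. Rspo3 read 0.18, 0.07 and 0.19 FPKM against 0.25, 0.10 and 0.12 FPKM. The groups overlapped for each of these ligands. The 6 central vein endothelial markers (these 3 with Thbd, Kit and Cdh13) summed to 0.71 to 1.10 FPKM in control liver against 1.92, 1.84 and 0.22 FPKM across treated replicates 1, 2 and 3, with Wnt2, Wnt9b and Cdh13 at 0 in replicate 3. After median-ratio scaling their sum was 0.611 to 1.00 in controls against 1.54, 1.26 and 0.525 in these replicates. Wnt5b, a ligand of the non-canonical branch, read 0.95 to 1.49 FPKM in control liver against 2.06, 0.38 and 0 FPKM in treated liver, and Porcn, the acyltransferase that ligands need for secretion, 1.26 to 2.00 FPKM against 2.35, 1.26 and 0.08 FPKM.

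Of 16 receptors and co-receptors, 15 had values, 6 were tested and 0 passed. Lgr4, the R-spondin receptor that hepatocytes express broadly, read 1.73, 1.80 and 1.55 FPKM in control liver against 2.54, 1.45 and 0.56 FPKM in treated liver (difference of -0.18 on the log2 scale with a limma adjusted p of 0.996). The co-receptor Lrp6 read 2.37 to 2.83 FPKM against 3.67, 2.18 and 0.32 FPKM, and the kinase-like receptor Ryk 1.22 to 3.65 FPKM against 2.34, 3.21 and 1.53 FPKM. Fzd8, a Frizzled receptor, was the 1 receptor with all treated values (1.42, 1.55 and 0.12 FPKM) under all controls (2.14 to 2.87 FPKM). Its limma adjusted p was 0.666. Such an order was a pattern of 5.35% of all tested genes (8.68% after median-ratio scaling). After scaling the co-receptor Lrp5 had all treated values above all controls, a pattern of 5.95% of all tested genes. The list's median log2 fold change was -0.24, close to the -0.27 of all tested genes.

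Of the 17 genes of the destruction complex and signal transduction, 11 were tested and 0 passed. Ctnnb1, beta-catenin itself, read 3.54, 3.74 and 2.47 FPKM in control liver against 5.21, 10.2 and 5.04 FPKM across treated replicates 1, 2 and 3. All 3 treated values were above all 3 controls, a pattern of 3.01% of all tested genes (5.95% after median-ratio scaling). A difference of 0.83 on the log2 scale (SE 0.61, 95% interval -0.36 to 2.02) did not pass limma's test (adjusted p = 0.950), and its size was 1.08 after median-ratio scaling. Gsk3a, a kinase of the complex, read 20.9 to 29.2 FPKM in control liver against 32.9, 34.8 and 4.26 FPKM in treated liver, and Dvl1, which recruits Axin to the receptor, 11.7 to 30.8 FPKM against 29.0, 36.0 and 3.87 FPKM. The list's median log2 fold change was 0.01. After median-ratio scaling 4 of the 17 genes, Apc, Csnk1e, Ctnnb1 and Tnks2, had all treated values above all controls. Of the 11 tested, 2 did, against 5.95% of all tested genes.

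Among 12 TCF/LEF factors and co-factors, 7 were tested and 0 passed. Tcf7l2, the main TCF of hepatocytes, read 0.36, 1.41 and 0.80 FPKM in control liver against 1.28, 1.03 and 0.28 FPKM in treated liver, with overlap. The beta-catenin co-activator Bcl9l read 4.62, 18.3 and 14.6 FPKM against 7.31, 5.14 and 0.52 FPKM (difference of -1.48 on the log2 scale with a limma adjusted p of 0.474), and the co-repressor Ctbp1 4.53 to 5.89 FPKM against 5.85, 7.78 and 1.61 FPKM.

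Notum, Nkd1 and Sp5 are further targets, of which the first 2 inhibit the pathway. Notum, a secreted enzyme that inactivates Wnt ligands, read 14.0, 19.6 and 19.6 FPKM in control liver against 13.3, 5.40 and 0.14 FPKM across treated replicates 1, 2 and 3 (log2 fold change -1.98, SE 0.72, limma adjusted p = 0.199). Nkd1, a cytoplasmic inhibitor of Dishevelled, read 1.29, 1.98 and 2.00 FPKM against 1.09, 0.57 and 0.33 FPKM (-0.74, limma adjusted p = 0.721). Sp5, a transcription factor induced by Wnt in many tissues, read 1.25, 1.00 and 0.99 FPKM against 0.67, 0.19 and 0 FPKM and was under the filter. For all 3 the treated values lay under all controls, as deposited or after median-ratio scaling, a pattern of 4.06% and 5.83% of the genes above 0 in a library. Notum was lower by limma's test without treated replicate 1 (adjusted p = 0.0120). Of the 17 inhibitors with values, 2 were tested and 0 passed. Of 18 general Wnt targets with values, 5 were tested and 0 passed, and the 2 with the highest mean were Vegfa, an endothelial growth factor, and Notum. Vegfa read 18.5 to 56.9 FPKM in control liver against 42.4, 50.0 and 6.03 FPKM in treated liver. Of the 5 tested, 4 had a negative log2 fold change (74.4% of all tested genes), and Ccnd1 did not. Ccnd1 read 1.52, 1.36 and 2.03 FPKM against 1.78, 17.0 and 3.68 FPKM, with overlap (log2 fold change 1.23, limma adjusted p = 0.474). After median-ratio scaling Mmp7 and Trib2, both under the filter, had all treated values above all controls, a pattern of 5.95% of all tested genes.

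**Figure D4:**
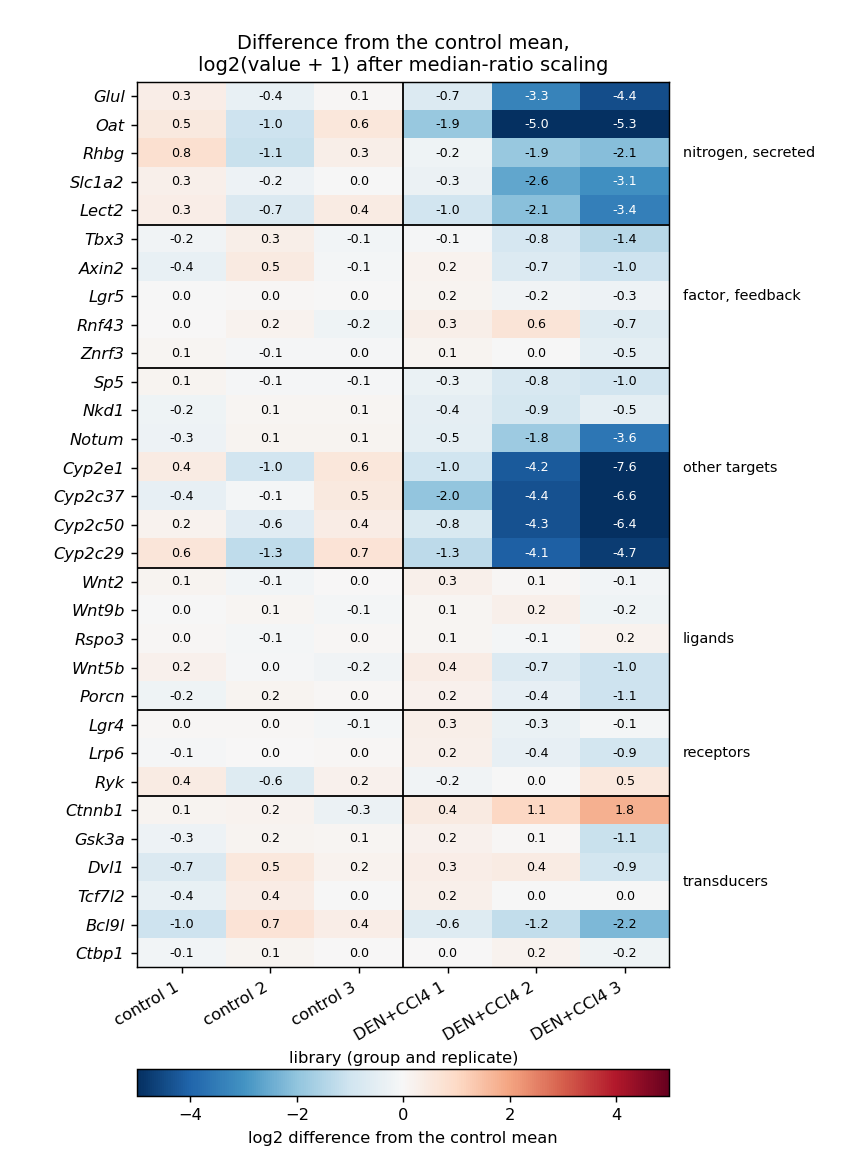
Difference of each library from the control mean on the log2(value + 1) scale after median-ratio scaling, for the 10 members and 21 other genes of the pathway, with the colour saturated at 5 in either direction. Oat is at -1.9, -5.0 and -5.3 in treated replicates 1, 2 and 3, Rnf43 at 0.3, 0.6 and -0.7, and Ctnnb1 at 0.4, 1.1 and 1.8.

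Of 25 other pericentral targets, 23 were tested, 6 were lower and 0 higher, where 0.645% of all tested genes were lower. All 23 fold changes were negative, as were 74.4% of those of all tested genes (59.8% after median-ratio scaling). The median was -1.87 against -0.27 over all tested genes (-1.66 against -0.10 after median-ratio scaling). Those that fell were the P450 genes Cyp2c37, Cyp2c29, Cyp2e1, Cyp2c50, Cyp8b1 and Cyp1a2, with log2 fold changes from -4.49 (Cyp2e1) to -3.32 (Cyp8b1) and limma adjusted p from 0.00198 (Cyp2c37) to 0.0305 (Cyp1a2). Treated replicate 1 lay among the controls as deposited for 3 of the 6, at 180 FPKM for Cyp1a2 (controls 121 to 258), 804 FPKM for Cyp2e1 (755 to 2239) and 23.4 FPKM for Cyp2c29 (22.0 to 88.3). None of the 6 passed after median-ratio scaling or without treated replicate 3. Cyp2c genes resemble each other closely in sequence, and their values are uncertain where reads match several of them. Of the 25, 11 had all treated values below all controls (13 after median-ratio scaling), against 4.06% and 5.83% of the genes above 0 in a library. Of the 23 tested, 9 did (11 after scaling), against 5.35% and 8.68% of all tested genes. Outside the P450 family these were, as deposited, Gulo, Slco1b2, Ahr, Nr1i3, Sp5, Aldh3a2, Avpr1a and Slc22a3. For Avpr1a and Slc22a3 the treated values were far below the controls, replicate 1 included. The vasopressin receptor gene Avpr1a read 2.30, 1.86 and 1.66 FPKM in control liver against 0.30, 0.31 and 0.04 FPKM in treated liver (difference of -1.28 on the log2 scale with a limma adjusted p of 0.0551). The cation transporter Slc22a3 read 0.77, 0.57 and 0.88 FPKM against 0.17, 0.14 and 0 FPKM and was under the filter.

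Periportal hepatocyte genes, which carry urea and glucose production at the other end of the lobule and which beta-catenin holds down near the central vein, were tested in the same way. Of 20, 0 passed in either direction, 19 had a negative log2 fold change (74.4% of all tested genes) and the median was -1.39 (-1.18 after median-ratio scaling). Serpina1c, an antitrypsin and the gene of the list with the highest mean, read 2358 to 4387 FPKM in control liver against 3903, 2215 and 782 FPKM in treated liver. After scaling, the list's median difference from the control mean was -0.08, -1.52 and -2.09 in treated replicates 1, 2 and 3. The same value for the 23 other pericentral targets was -0.51, -2.01 and -2.87. Of 15 genes of ammonia and glutamine handling with values, 10 were tested and 0 passed, with a median of -1.44. Among them Gpt, alanine aminotransferase, read 118 to 165 FPKM in control liver against 113, 82.0 and 15.3 FPKM in treated liver. The glutamine carrier Slc38a3 read 73.2 to 158 FPKM against 98.0, 135 and 24.4 FPKM. The difference between the pericentral genes and either of these lists was not tested.

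Among the gene patterns most like that of Glul over the 6 libraries, after median-ratio scaling and of 7475 other genes, were those of Magix, Slc6a12, Dpys and Idh3g (Pearson's r 0.997 to 0.998). Of the members, Slc1a2 was at 0.996, Oat was at 0.971, Lect2 at 0.965, Tbx3 at 0.915, Rhbg at 0.898, Axin2 at 0.788 and Rnf43 at 0.209. The patterns most like that of Axin2 were those of Ubap1, Echdc2, Vgll4, Slc25a34 and Cntfr (r 0.986 to 0.992), and Tbx3 was at 0.958. These values describe 6 libraries that share their scaling, and carry no test.

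Markers of other cells also differed between the libraries. The summed level of 8 stellate cell and fibroblast markers was 9.0 to 12.8 FPKM in control liver against 20.6, 37.1 and 14.3 FPKM across treated replicates 1, 2 and 3. Of the 6 tested, 3 (Col1a1, Col3a1 and Acta2) were above all controls in all 3 treated libraries as deposited. After median-ratio scaling 5 were, with Des and Pdgfrb added. Of all tested genes 3.01% were so as deposited and 5.95% after scaling. Lrat, of the same list, was below all controls in all 3 as deposited (0.31, 0.35 and 0.15 FPKM against 0.40 to 0.58 FPKM) and overlapped them after scaling. After median-ratio scaling that sum was 7.89 to 11.4 in controls and 16.5, 25.4 and 34.1 in treated liver. The 6 cholangiocyte markers summed to 9.21 to 16.4 FPKM and 14.6, 34.0 and 25.4 FPKM, of which Spp1 was the largest part, with Cftr at 0 in control replicate 1. Epcam was below all controls in all 3 treated libraries, as deposited (0.11, 0.10 and 0 FPKM against 0.17 to 0.22 FPKM) and after scaling. The 7 sinusoidal endothelial markers summed to 14.4 to 25.6 FPKM and 24.8, 35.4 and 11.9 FPKM. The 6 Kupffer cell and macrophage markers summed to 32.2 to 85.5 FPKM and 46.5, 24.9 and 21.2 FPKM, and the 6 lymphocyte markers to 2.89 to 4.56 FPKM and 5.21, 6.12 and 1.78 FPKM, with Ms4a1 at 0 in control replicate 1 and treated replicate 3. After median-ratio scaling the sums in controls and in treated replicates 1, 2 and 3 were 7.93 to 15.0 and 11.7, 23.3 and 60.7 for cholangiocytes, and 12.4 to 22.4 and 19.9, 24.3 and 28.5 for sinusoidal endothelium. They were 27.7 to 77.97 and 37.3, 17.0 and 50.6 for macrophages, and 2.64 to 3.996 and 4.19, 4.19 and 4.25 for lymphocytes. Treated replicate 3 was thus below the controls as deposited and not after scaling for the last 3 of these lists. Elsewhere in these lists, Lyve1, Cd3g and Cd8a were above all controls in all 3 treated libraries as deposited, and Timd4 was below them. After scaling Fcgr2b, Lyve1, Pecam1 and Cd8a were above and Timd4 was below. Values all below the controls, as in Epcam, Timd4 and, as deposited, Lrat, were a pattern of 4.06% of the genes above 0 in a library (5.83% after scaling). No marker of these lists passed limma's test in either direction. The part of these cells in the lower values of the members was not tested.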

How the data were processed

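Poly(A) RNA of 6 mouse livers was sequenced by the submitters, and the authors deposited FPKM with 2 decimals in 1 table with a column per library, per the file headers. HISAT, StringTie and GRCm38 are named in the submitters' processing notes, and for their versions and parameters, the annotation and the use of strand no source was found here. The table holds no counts. At best 23.7% to 28.4% of low values lay within 0.1 of a whole multiple of a common step (20% by chance), so no reads were recovered, and the depth is unknown. Libraries were mapped to groups by the titles, and 0 of the value columns were left unmapped.

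The 8528 genes whose mean reached 1 FPKM were tested on log2(FPKM + 1) with limma 3.58.1 in R 4.3.3 (two-sided, with moderated variances that follow mean expression, and without covariates), with Benjamini-Hochberg adjustment over all of them at 0.05. The exact permutation tests used scipy 1.17.1. The fit was tested on simulated data. Coordinates are from GENCODE M21. Alternatives were a pseudocount of 0.1, median-ratio scaling, a filter at 5 FPKM or none, a common total without mitochondrial genes, no trend, the replicate number as a block, and each library left out, with and without scaling.

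The members and lists were chosen with earlier results of these data known. Named were all members, up to 4 called genes of each list, the 2 with the highest mean where fewer than 2 were called, Wnt2, Wnt9b, Rspo3, Ctnnb1, Tcf7l2, Lgr4, Sp5, Nkd1 and Notum, and the 5 genes most like Glul and most like Axin2. Of the genes this rule names, 2 are not reported here. Cyp8b1, Cyp1a2, Avpr1a, Slc22a3, Gulo, Slco1b2, Ahr, Nr1i3, Aldh3a2, Fzd8, Lrp5, Apc, Csnk1e, Tnks2, Ccnd1, Mmp7, Trib2, Arg1, Alb and the cell markers were named after their values were seen.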

Additional observations from a re-analysis of the deposited data

How the results depend on the processing

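Of the 8 tested members, 7 kept their direction under all alternatives run. Rnf43 turned from 0.12 to -0.17 with a pseudocount of 0.1, and when libraries were left out it ran from -0.29 to 0.67 (-0.18 to 0.46 with median-ratio scaling as well, where it was -0.018 without control replicate 3 and -0.014 without DEN+CCl4 replicate 1). Oat, the member called lower, missed the threshold at a log2 fold change of -4.69 with a pseudocount of 0.1 (limma adjusted p = 0.200), -4.25 without the filter (0.875) or without the trend (0.419), -4.09 with median-ratio scaling (0.401) and -4.10 with a common non-mitochondrial total (0.0844). The cause was not tested. The same pseudocount moved Slc1a2 to -3.37, Rhbg to -2.39, Tbx3 to -1.85 and Axin2 to -1.46, none of them past the threshold. With 1 library left out Oat ran from -5.49 to -3.27 and Glul from -4.28 to -1.77. Lect2 ran from -3.16 to -1.29, Slc1a2 from -2.91 to -1.38, Rhbg from -2.14 to -0.96, Tbx3 from -1.14 to -0.37 and Axin2 from -0.91 to -0.19. With median-ratio scaling as well, the ranges were -5.18 to -3.45 for Oat (called at -5.18, and not at -4.61, -3.85, -3.80, -3.62 or -3.45), -3.88 to -2.01 for Glul, -2.75 to -1.53 for Lect2, -2.84 to -1.45 for Slc1a2, -2.0 to -1.01 for Rhbg, -1.12 to -0.46 for Tbx3 and -0.87 to -0.26 for Axin2.

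Over all tested genes, 55 were lower and 71 higher. Lower and higher counts were 3 and 6 with a pseudocount of 0.1, 3 and 6 with a common non-mitochondrial total, 53 and 14 with a filter at 5 FPKM, and 0 and 0 without the filter, with median-ratio scaling or without the trend. Without the filter the counts at an unadjusted p under 0.05 were 568 and 540, with median-ratio scaling 575 and 374, and without the trend 365 and 131. With 1 library left out they ran from 0 to 270 lower and 0 to 109 higher (0 to 439 and 0 to 236 with scaling). Members lower were 0 instead of 1 with a pseudocount of 0.1, without the filter, with either scaling and without the trend, and 0 to 5 with 1 library left out. The other pericentral targets went from 6 lower to 0 under the same settings and to 0 to 13 with 1 library left out (0 to 16 with scaling). Periportal genes ran from 0 to 7 lower (0 to 8, and 0 to 1 higher, with scaling), ammonia and glutamine genes from 0 to 3, and Wnt inhibitors and general Wnt targets from 0 to 1 lower (general targets also 0 to 1 higher with scaling). Over all tested genes the largest counts were those without DEN+CCl4 replicate 1.

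With the replicate number as a block, 32 genes were lower and 62 higher, and Oat kept its call (limma adjusted p = 0.0117). The labels do not say whether same-numbered libraries were paired. Deviations from the group means correlated across genes at 0.07, 0.42 and -0.15 for numbers 1, 2 and 3. The value for number 2 was the highest of all pairs, and control replicates 1 and 3 correlated best with another number. So few pairs cannot decide whether the numbers mark a pairing. Depth is unknown, so no counting error could be given for any gene.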
